A study of Mus musculus with 8 samples.

Results

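Retinoic acid is the vitamin A derivative that patterns the hindbrain and spinal cord, and it is one of the signals used to turn embryonic stem cells into motor neurons. The 9 mouse genes described here handle it at successive steps. Stra6 encodes the cell-surface receptor that takes up retinol from its carrier in blood. Crabp1 and Crabp2 encode the cellular proteins that bind retinoic acid, Dhrs3 a reductase that turns retinaldehyde back into retinol, and Cyp26a1 and Cyp26b1 the cytochrome P450 enzymes that break retinoic acid down. Rarb and Rarg encode retinoic acid receptors, and Tgm2 encodes transglutaminase 2, a protein-crosslinking enzyme whose gene retinoic acid raises in many cells. The genes were chosen for these roles, with earlier results of these data known. Their probes were found through the RefSeq accession that each probe carries. All 9 genes were on the array, with 11 probes (2 each for Rarb and Tgm2 and 1 for each other gene), and all 9 were among the 24633 genes tested, of which 15037 had a symbol.

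As background, retinol that enters a cell is oxidised to retinaldehyde and then to retinoic acid. The acid binds receptors that sit on DNA as dimers with retinoid X receptors and switch transcription of the genes beside them. Genes for its own removal, for one of its receptors and for a reductase that drains its precursor are among the classic targets, which closes a feedback loop. In the embryo the acid comes from the somites and the meninges, reaches the neural tube from outside and is cleared where it is not wanted.

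RNA came from motor neuron cultures derived from male mouse embryonic stem cells of an Hb9GFP line, whose green fluorescent protein is a reporter of Hb9, a motor neuron gene. Cells with a knockout of Litchi were set against control cells at each of the days 9 and 7, which makes 4 groups of 2 arrays and 8 arrays in all. Cells of every group had received retinoic acid and Sonic hedgehog (Shh) between days 2 and 5, were dissociated from whole embryoid bodies on day 5, and were then kept in GDNF, a motor neuron survival factor, until sampling, so that no group was sampled while retinoic acid was being added under the stated protocol. The labels' protocols name no cell sort, the number of knockout clones was not stated, and nothing in the labels says whether the 2 arrays of a group came from separate cultures; the p-values therefore rest on a spread between samples that could be technical alone.

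Rarb and Cyp26a1 are textbook direct targets with a retinoic acid response element close to the start site, and their promoters are shown because such an element is how the acid is known to reach a gene. Such an element is 2 half-sites in the same direction, and the search allowed the consensus half-site AGGTCA, its close variant GGGTCA, another variant written AGTTCA and the remaining variant GGTTCA, with 5 bases between half-sites, on both strands, in windows from 250 bases before to 50 bases after each start site (RefSeq sequence, GRCm38.p6). The table held windows for 7 of the 9 genes, and only the windows of Rarb and Cyp26a1 had a match. The Rarb window is chr14:16575427-16575726 on the minus strand, and its match lies from 53 to 37 bases before the start site. The Cyp26a1 window is chr19:37697558-37697857 on the plus strand, and its match lies from 32 to 16 bases before the start site and reads on the opposite strand to the gene. Capitals mark the match, and both windows are written 5′ to 3′ along the gene.
Rarb: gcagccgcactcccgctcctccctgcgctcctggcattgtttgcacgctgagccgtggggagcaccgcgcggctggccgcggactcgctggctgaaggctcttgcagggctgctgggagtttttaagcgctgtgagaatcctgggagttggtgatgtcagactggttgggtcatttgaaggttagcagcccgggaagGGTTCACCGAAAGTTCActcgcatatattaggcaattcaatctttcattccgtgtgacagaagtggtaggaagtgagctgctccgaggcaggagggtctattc
Cyp26a1: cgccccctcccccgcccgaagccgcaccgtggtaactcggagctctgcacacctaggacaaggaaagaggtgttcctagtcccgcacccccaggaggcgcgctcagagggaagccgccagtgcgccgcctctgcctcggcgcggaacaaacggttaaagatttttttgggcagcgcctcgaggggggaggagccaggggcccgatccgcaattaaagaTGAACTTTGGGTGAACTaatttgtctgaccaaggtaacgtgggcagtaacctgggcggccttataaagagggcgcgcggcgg
A match of this kind was found for 31 of 27025 genes (0.115%) in windows of the same length. With 1 or 2 bases between the half-sites, none of the windows of the 7 genes matched, against 0.263% and 0.311% of all genes. A match is a description of the letters and says nothing of binding in these cells.

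Values are the log2 signal of a probe minus the 75th percentile of its array, so that 0 is the brightness of that percentile, and levels of different probes are not set against each other. The percentile lay between 649 and 1691 intensity units and was higher on the replicate 1 array than on the replicate 2 array of every group. Spots well above background made up 55.94% to 67.87% of an array, and all 11 probes of the 9 genes were so on all 8 arrays. Litchi was not found among the gene names, so the targeted gene is not analysed here and the labels were not checked against it. All 6 motor neuron markers listed (Isl1, Lhx3, Chat, Slc18a3, Slc5a7 and Isl2) were well above background on both arrays of every group. All 8 markers of fibroblasts, meninges and mesenchyme were too, and so were the 6 of neural progenitors and the 4 of the floor plate. Marker RNA of several cell types was thus present. In such bulk RNA, fewer cells of a type and less RNA per cell cannot be told apart.

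**Figure D1:**
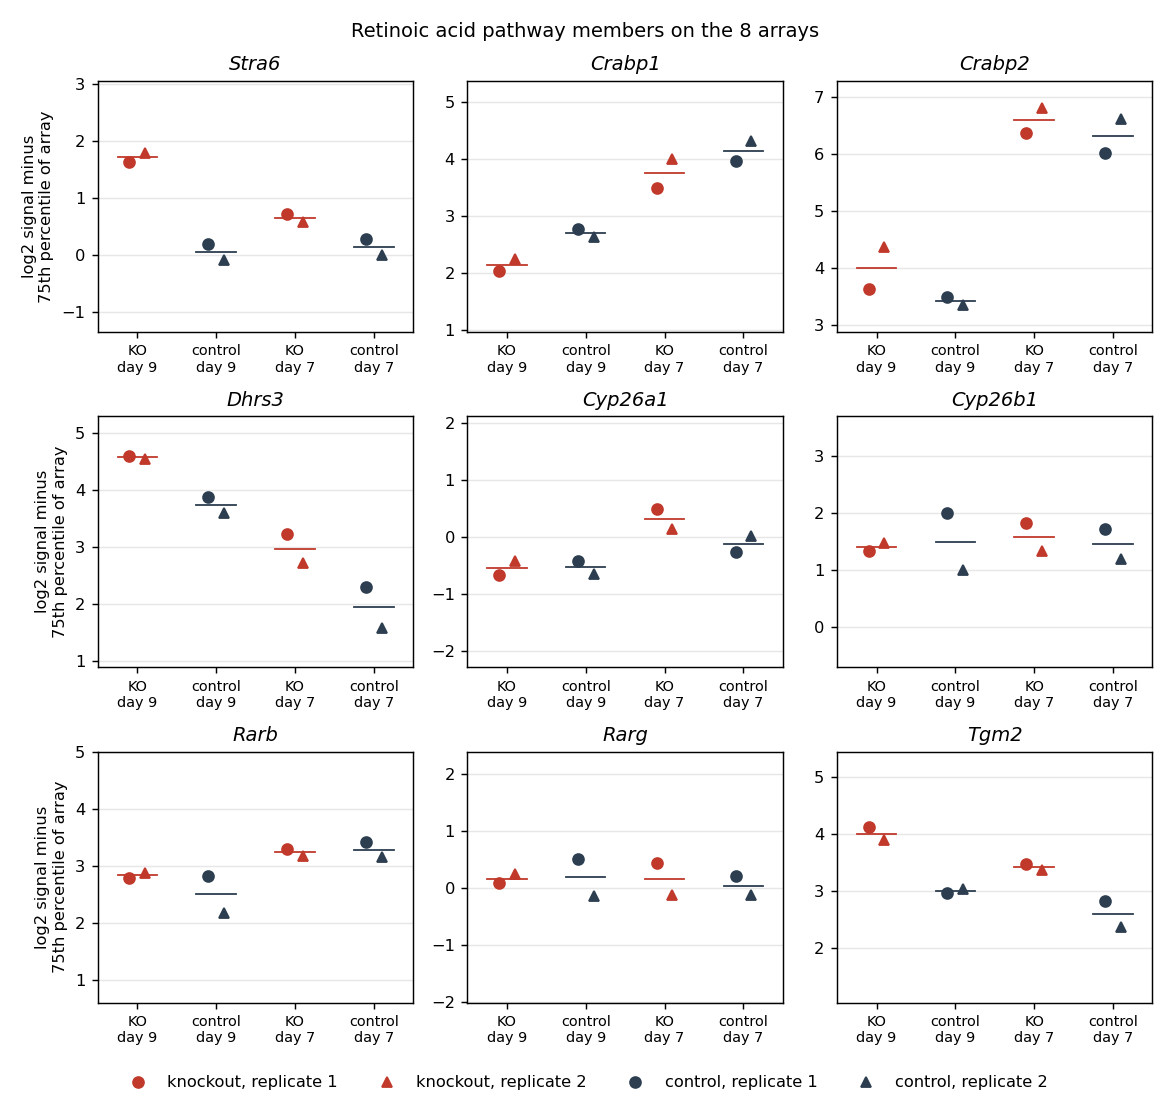
Level of the 9 genes on each of the 8 arrays (y axis: log2 signal minus the 75th percentile of the array; x axis: the 4 groups; circles, replicate 1; triangles, replicate 2; lines, group means; each panel spans the same number of log2 units). Stra6 on day 9 lies at 1.62 and 1.79 in knockout cells, against 0.18 and -0.10 in control cells, and Crabp2 is lower on day 9 than on day 7 in both genotypes.

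In knockout cells against control cells, the uptake receptor Stra6 and the target Tgm2 rose on day 9, by 3.17-fold and 2.02-fold, and the reductase Dhrs3 rose for the mean of both days, by 1.92-fold. The other 6 members (Crabp1, Crabp2, Cyp26a1, Cyp26b1, Rarb and Rarg) were not called in any genotype comparison. On day 7 no member was called by limma, though 3 of 9 were higher at an unadjusted p under 0.05, while 53 genes were called over the whole array (0.215%) and 4659 had an unadjusted p under 0.05. On day 9, 2 of 9 members were called, both higher, against 5.46% of all genes tested (1.5% higher and 3.96% lower). For the mean effect of both days, 3 of 9 were called, all higher, against 14.8% of all genes (5.48% higher and 9.35% lower). These shares include genes without a symbol. Of the 15037 genes with a symbol, 302 were called higher on day 9 and 1099 for the mean. The median log2 change of the 9 members was 0.33 on day 9, 0.27 on day 7 and 0.22 for the mean, against -0.02, -0.05 and -0.04 over all genes tested. Calls rest on limma's moderated test, two-sided, with Benjamini-Hochberg adjustment over all genes and a threshold of 0.05.

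**Figure D2:**
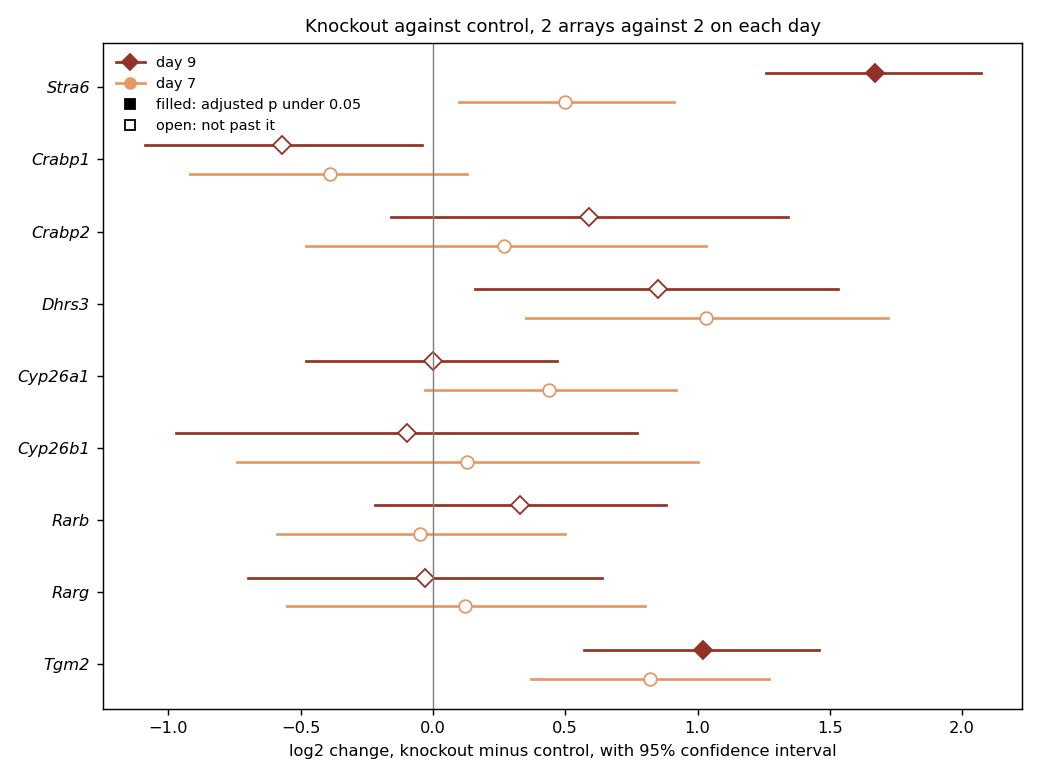
Knockout minus control on the log2 scale for the 9 genes (x axis, log2 change; points, limma estimates from 2 arrays against 2; bars, 95% confidence intervals; filled points, adjusted p under 0.05). The filled points are those of Stra6 (1.67) and Tgm2 (1.02) on day 9, and the intervals of Cyp26b1 and Rarg span 0 on both days.

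Stra6, the retinol uptake receptor, stood at 1.62 and 1.79 in knockout cells on day 9, against 0.18 and -0.10 in control cells of that day. On day 7 it stood at 0.72 and 0.57 in knockout cells, against 0.27 and 0.00 in control cells. The knockout arrays were higher on both days, and the lowest of the 4 knockout values lay above the highest of the 4 control values. With 2 arrays against 2, the genotypes did not overlap for 59.7% of all genes on day 9 and 48.3% on day 7, in either direction. The group means ± SD on day 9 were 1.70 ± 0.12 in knockout cells and 0.04 ± 0.20 in control cells (n = 2 each). The log2 change was 1.67 ± 0.17 on day 9 (SE, limma adjusted p = 0.0143), 0.50 ± 0.17 on day 7 (adjusted p = 0.194) and 1.09 ± 0.12 for the mean of both days (adjusted p = 0.00775). The difference between the effects, day 9 minus day 7, was 1.16 ± 0.24 with an unadjusted limma p of 0.00229, and it was not called after adjustment (adjusted p = 0.712). For that difference 1 of all genes tested was called (0.00406%), 1479 had an unadjusted p under 0.05, and none of the 9 members was called, with Stra6 the one member under an unadjusted 0.05. With time in culture, Stra6 rose in knockout cells, by 1.06 ± 0.17 on the log2 scale (day 9 minus day 7, adjusted p = 0.0169), and changed by -0.10 ± 0.17 in control cells (adjusted p = 0.752). The call for the mean of both days was kept under all 15 other settings tried (log2 change 1.02 to 1.25, adjusted p up to 0.0467). The day 9 call was lost without knockout day 9 replicate 1 (1.75, adjusted p = 0.054), knockout day 9 replicate 2 (1.58, 0.103) or control day 9 replicate 1 (1.80, 0.0549), and the time call without any 1 of the 4 knockout arrays (0.97 to 1.15, adjusted p from 0.0523 to 0.101).

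Tgm2, the crosslinking enzyme, stood at 4.11 and 3.89 in knockout cells on day 9, against 2.95 and 3.02 in control cells. On day 7 its values were 3.46 and 3.36 in knockout cells, against 2.82 and 2.36 in control cells. Here too every knockout array lay above every control array. Stra6 and Tgm2 were the 2 members whose 4 knockout arrays did not overlap the 4 control arrays, both higher. Over all genes tested, 5.38% lay higher without overlap and 8.61% lower. The log2 change of Tgm2 was 1.02 ± 0.19 on day 9 (adjusted p = 0.0362), 0.82 ± 0.19 on day 7 (adjusted p = 0.111) and 0.92 ± 0.13 for the mean (adjusted p = 0.014). The other Tgm2 probe gave 1.03 ± 0.16, 0.81 ± 0.16 and 0.92 ± 0.11, so the probes did not differ in direction or by more than their standard errors. Between days Tgm2 changed by 0.59 ± 0.19 in knockout cells (adjusted p = 0.108) and by 0.39 ± 0.19 in control cells (adjusted p = 0.239), neither called. The day 9 call was lost without any 1 of 6 arrays: either knockout array of day 7 (1.02, adjusted p = 0.06 for each), knockout day 9 replicate 1 (0.91, 0.146) or replicate 2 (1.13, 0.151), and control day 9 replicate 1 (0.98, 0.155) or replicate 2 (1.05, 0.0903). It was also lost after normexp (1.05, 0.0617) and with no filter on dim probes (1.02, 0.135). The call for the mean was lost without knockout day 9 replicate 2 (0.97, adjusted p = 0.051) and with no filter (0.0655).

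Dhrs3, the retinaldehyde reductase, stood at 4.60 and 4.55 in knockout cells on day 9, against 3.87 and 3.59 in control cells. On day 7 it stood at 3.23 and 2.71 in knockout cells, against 2.30 and 1.58 in control cells. Within each day the knockout arrays were higher, but the control arrays of day 9 lay above the knockout arrays of day 7, since the gene was higher on day 9 in both genotypes. Within a day the genotypes did not overlap for 59.7% of all genes on day 9 and 48.3% on day 7, in either direction. The log2 change between genotypes was 0.85 ± 0.29 on day 9 (adjusted p = 0.13) and 1.03 ± 0.29 on day 7 (adjusted p = 0.145), and only their mean of 0.94 ± 0.20 was called (adjusted p = 0.0313). On day 9 against day 7, Dhrs3 rose by 1.60 ± 0.29 in knockout cells (3.04-fold, adjusted p = 0.0234) and by 1.79 ± 0.29 in control cells (3.45-fold, adjusted p = 0.0216). The genotype effects of the days differed by -0.18 ± 0.40 (adjusted p = 0.968). The mean genotype call was lost without knockout day 7 replicate 1 (0.81, adjusted p = 0.0789), control day 7 replicate 2 (0.76, 0.0582), knockout day 9 replicate 1 (0.93, 0.0888) or replicate 2 (0.95, 0.0963), or control day 9 replicate 1 (1.01, 0.0672) or replicate 2 (0.87, 0.0704), and also after normexp background correction (0.96, 0.0528) and with no filter on dim probes (0.94, 0.0985). The time calls were lost without knockout day 7 replicate 2 (1.34, 0.121), knockout day 9 replicate 1 (1.58, 0.122) or replicate 2 (1.63, 0.11) in knockout cells, and without control day 7 replicate 2 (1.42, 0.0995), control day 9 replicate 1 (1.65, 0.0639) or replicate 2 (1.93, 0.0883) in control cells.

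On day 9 against day 7, both retinoic acid binding proteins fell and Dhrs3 rose in both genotypes. In knockout cells 2 members rose (Stra6 and Dhrs3) and 3 fell (Crabp1, Crabp2 and Cyp26a1), against 8.31% of all genes called (4.14% higher and 4.17% lower). In control cells 1 rose (Dhrs3) and 2 fell (Crabp1 and Crabp2), against 7.36% of all genes (4.11% higher and 3.26% lower). The median log2 change of the members was -0.18 in knockout cells and -0.10 in control cells, against -0.12 over all genes in each genotype. All 4 day 9 arrays lay above all 4 day 7 arrays for Dhrs3 and below them for Crabp1, Crabp2, Cyp26a1 and Rarb. Over all genes tested, 7.92% lay higher without overlap and 12.2% lower.

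**Figure D3:**
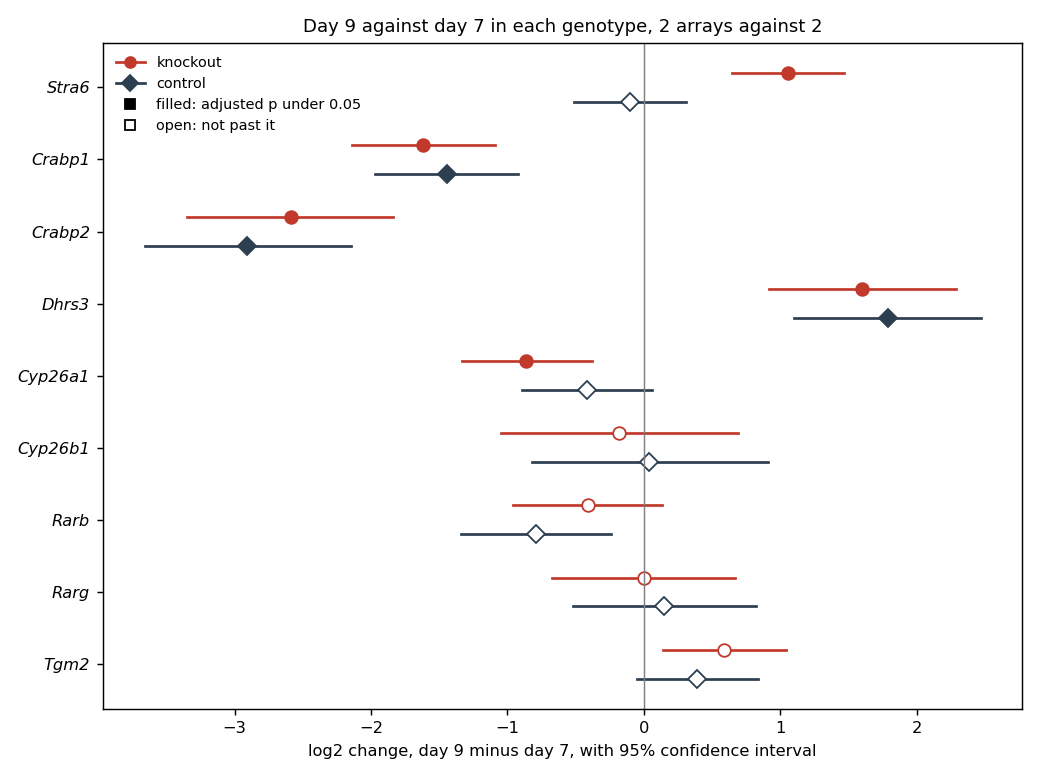
Day 9 minus day 7 on the log2 scale for the 9 genes in each genotype (x axis, log2 change; points, limma estimates from 2 arrays against 2; bars, 95% confidence intervals; filled points, adjusted p under 0.05). Crabp2 has the most negative points (-2.59 in knockout cells and -2.91 in control cells), and Stra6 is filled in knockout cells (1.06) and open in control cells (-0.10).

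Crabp2, which carries retinoic acid to its receptors in the nucleus, stood at 3.64 and 4.38 in knockout cells on day 9, against 6.37 and 6.82 on day 7. In control cells it stood at 3.49 and 3.35 on day 9, against 6.03 and 6.62 on day 7. No day 9 value came within 1 log2 unit of a day 7 value. Crabp2 fell by 2.59 ± 0.31 on the log2 scale in knockout cells (6.03-fold lower, adjusted p = 0.00809), and it fell by 2.91 ± 0.31 in control cells (7.51-fold lower, adjusted p = 0.00895). These were the largest changes with time among the 9 members. Between genotypes Crabp2 differed by 0.59 ± 0.31 on day 9 (adjusted p = 0.291) and by 0.27 ± 0.31 on day 7 (adjusted p = 0.689). The day 7 groups overlapped, and neither difference was called. The fall was no longer called without knockout day 7 replicate 2 (-2.37, adjusted p = 0.0518) in knockout cells, nor without control day 7 replicate 2 (-2.61, 0.062) or control day 9 replicate 2 (-2.84, 0.055) in control cells.

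Crabp1, which holds retinoic acid in the cytoplasm and is linked to its breakdown, stood at 2.03 and 2.24 in knockout cells on day 9, against 3.49 and 4.01 on day 7. In control cells its values were 2.78 and 2.63 on day 9, against 3.97 and 4.31 on day 7. It fell by 1.62 ± 0.22 in knockout cells (3.07-fold lower, adjusted p = 0.0104), and it fell by 1.44 ± 0.22 in control cells (2.72-fold lower, adjusted p = 0.0196). Its mean genotype effect was below 0, at -0.48 ± 0.15 (adjusted p = 0.0829, not called). The knockout arrays lay below the control arrays on day 9 (-0.57 ± 0.22, adjusted p = 0.17) and overlapped them on day 7 (-0.39 ± 0.22, adjusted p = 0.384). Of all genes tested, 59.7% did not overlap between genotypes on day 9, in either direction. The fall with time was no longer called without knockout day 7 replicate 2 (-1.36, adjusted p = 0.0528), knockout day 9 replicate 1 (-1.51, 0.0715) or replicate 2 (-1.72, 0.0536) in knockout cells, nor without control day 7 replicate 2 (-1.27, 0.112) or control day 9 replicate 2 (-1.37, 0.107) in control cells.

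Cyp26a1, the clearing enzyme whose promoter is printed above, stood at -0.66 and -0.42 in knockout cells on day 9, against 0.50 and 0.14 on day 7. In control cells it stood at -0.41 and -0.65 on day 9, against -0.26 and 0.03 on day 7. Day 9 was lower in each genotype, and the groups of a genotype did not overlap. Over all genes tested, the days did not overlap for 58% in knockout cells and 54.8% in control cells, in either direction. Cyp26a1 fell by 0.86 ± 0.20 in knockout cells (adjusted p = 0.0487) and changed by -0.42 ± 0.20 in control cells (adjusted p = 0.242). The call in knockout cells was kept in 1 of 15 other settings, with an adjusted p of up to 0.224. It was lost without any 1 of the 8 arrays, with log2 changes from -1.04 to -0.68, so it is a borderline call. Between genotypes Cyp26a1 differed by 0.00 ± 0.20 on day 9 (adjusted p = 0.994) and by 0.44 ± 0.20 on day 7 (adjusted p = 0.292).

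Rarb, the receptor gene whose promoter is printed above, stood at 2.79 and 2.87 in knockout cells on day 9, against 3.30 and 3.18 on day 7. In control cells it stood at 2.82 and 2.18 on day 9, against 3.42 and 3.15 on day 7. All day 9 arrays lay below all day 7 arrays, but neither change was called, at -0.41 ± 0.23 in knockout cells (adjusted p = 0.307) and -0.79 ± 0.23 in control cells (adjusted p = 0.0893). Without control day 9 replicate 1, the change in control cells was called, at -1.11 (adjusted p = 0.038). The other Rarb probe gave changes of -0.46 ± 0.20 in knockout cells and -0.59 ± 0.20 in control cells. Between genotypes the 2 probes gave 0.33 ± 0.23 and 0.33 ± 0.20 on day 9, and -0.05 ± 0.23 and 0.20 ± 0.20 on day 7.

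Cyp26b1, the other clearing enzyme, stood at 1.34 and 1.47 in knockout cells on day 9, against 2.00 and 1.00 in control cells. On day 7 it stood at 1.83 and 1.34 in knockout cells, against 1.72 and 1.19 in control cells. The 2 control arrays of day 9 lay 1 log2 unit apart and enclosed both knockout arrays. Its genotype change on day 9 was -0.10 ± 0.36 with a 95% confidence interval from -0.97 to 0.77 (adjusted p = 0.89), which leaves room for a change of nearly 1 log2 unit either way. On day 7 it was 0.13 ± 0.36 (adjusted p = 0.885). Rarg, the other receptor gene, stood at 0.08 and 0.24 in knockout cells on day 9, against 0.51 and -0.14 in control cells. Its day 7 values were 0.43 and -0.12 in knockout cells, against 0.20 and -0.13 in control cells. All 4 groups of Rarg overlapped, and its genotype change on day 9 was -0.03 ± 0.28 with an interval from -0.70 to 0.64 (adjusted p = 0.961).

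The rest of the pathway was described with lists chosen for their roles, with earlier results of these data known. Shares over all genes are therefore given as background only. Of 29 genes of retinol transport, storage and oxidation to retinoic acid, 23 passed the filter on dim probes. In knockout cells against control cells, 5 of the 23 rose on day 9 and none fell, and 6 rose and none fell for the mean of both days. On day 7 none was called, and 6 were higher and 1 lower at an unadjusted limma p under 0.05. Of the 24633 genes tested, 4659 were under it on day 7 in either direction. The list's median log2 change was 0.26 on day 9 and 0.11 for the mean, against -0.02 and -0.04 over all genes, but after normexp background correction the list's medians were -0.09 and -0.02. Over all genes, 1.5% were called higher on day 9 and 5.48% for the mean. With the replicate block, 5 were higher and 1 lower on day 9, and 6 higher and 2 lower for the mean, and without control day 9 replicate 2 there was 1 lower call for the mean. Rdh1, a retinol dehydrogenase, had a day 7 change of -1.29 ± 0.32 (adjusted p = 0.124, not called). The dehydrogenases that make retinoic acid itself were among those that rose. Aldh1a2, the main such enzyme of the early embryo, stood at 2.76 and 2.80 in knockout cells on day 9, against 1.77 and 1.55 in control cells, and at 3.11 and 3.23 in knockout cells on day 7, against 2.24 and 2.04 in control cells. All 4 knockout arrays were higher than all 4 control arrays, with a mean log2 change of 1.07 ± 0.10 (adjusted p = 0.0062) that was called under all 15 other settings.

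Aldh1a3, the enzyme of the same family known from the eye and forebrain, stood at 0.99 and 1.20 in knockout cells on day 9, against -0.44 and -0.71 in control cells. On day 7 it was far dimmer, at -2.33 and -2.19 in knockout cells, against -2.61 and -3.46 in control cells. It thus rose with time in both genotypes, by 3.35 ± 0.28 in knockout cells (10.2-fold, adjusted p = 0.00499) and by 2.46 ± 0.28 in control cells (5.50-fold, adjusted p = 0.0102). On day 9 it was higher in knockout cells by 1.67 ± 0.28 (adjusted p = 0.0319), a call lost without any 1 of the 4 knockout arrays or either control array of day 9 (adjusted p from 0.0547 to 0.172). The rise in control cells was not called without control day 7 replicate 2 (2.03, 0.0608) or control day 9 replicate 2 (2.6, 0.0518).

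Adh1, an alcohol dehydrogenase that oxidises retinol, was higher in knockout cells by 2.05 ± 0.19 for the mean of both days (4.14-fold, adjusted p = 0.00576) and fell with time in both genotypes, by 2.06 ± 0.26 in knockout cells (adjusted p = 0.00905) and by 1.82 ± 0.26 in control cells (adjusted p = 0.0183). The fall was not called without knockout day 7 replicate 2 in knockout cells (-2.1, 0.0535), nor without control day 7 replicate 1 (-1.74, 0.0644), control day 7 replicate 2 (-1.90, 0.0949) or control day 9 replicate 2 (-2.06, 0.0562) in control cells. After normexp the genotype changes of Adh1 were 0.97 on day 9 (adjusted p = 0.0855, not called) and 1.35 for the mean (0.0149). With time in control cells Adh1 then changed by -0.9 (adjusted p = 0.0895, not called). Aldh1a7 (1.55 ± 0.13, adjusted p = 0.00468) and Aldh1a1 (0.83 ± 0.10, adjusted p = 0.0106) rose as well for the mean, but these are close copies of each other whose probes may share signal, so their separate values are uncertain. Dhrs4, a retinal reductase (0.90 ± 0.20, adjusted p = 0.0332), completed the 6, and it was not called without any 1 array but control day 7 replicate 2 (adjusted p from 0.0503 to 0.0968).

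With time, Bco1, which cleaves beta-carotene to retinaldehyde, fell at least 4.60-fold in knockout cells (adjusted p = 0.0017) and at least 2.53-fold in control cells (adjusted p = 0.00373); these are bounds, because it was not well above background on any day 9 array. Its fall was not called after normexp background correction (adjusted p = 0.159 in knockout cells and 0.401 in control cells). The bounds hold for the main processing only. Among the 15 other settings the log2 change was as small as -0.97 in knockout cells and -0.56 in control cells. The 5 genotype calls of day 9 became 0 without either knockout array of day 9, 1 without control day 9 replicate 1 and 2 without control day 9 replicate 2. The 6 calls for the mean became 4 without knockout day 7 replicate 2, or without either knockout array of day 9; those of Adh1, Aldh1a7 and Aldh1a2 were kept under all 15 settings.

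**Figure D4:**
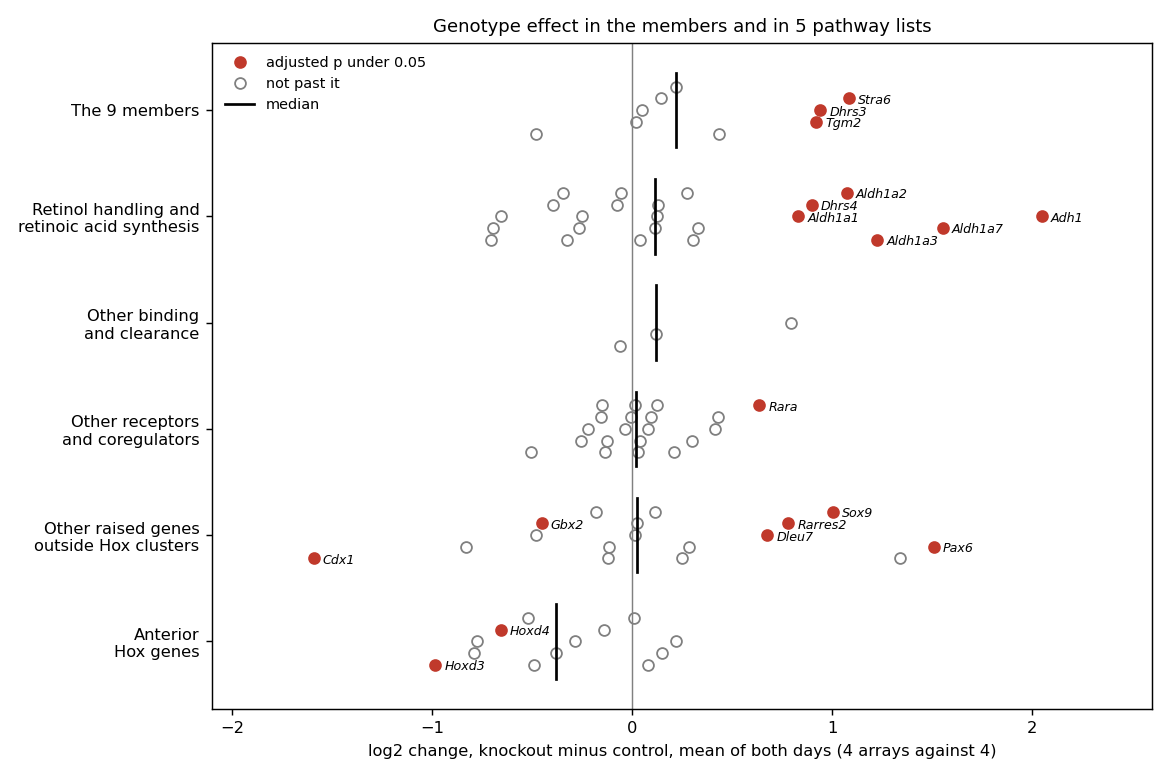
Knockout minus control, mean of both days, for the 9 members and the tested genes of 5 pathway lists (x axis, log2 change from 4 arrays against 4; each point is a gene; filled points, adjusted p under 0.05, named; black lines, medians). The medians are 0.22 for the members and 0.11 for retinol handling and retinoic acid synthesis, and -0.38 for the anterior Hox genes.

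Of the other genes that bind or clear retinoic acid, 3 of 4 passed the filter (Fabp5, Por and Cyp2s1), and none was called in any comparison. Fabp5, a binding protein that carries retinoic acid to another nuclear receptor, differed between genotypes by 0.12 ± 0.11 for the mean of both days (adjusted p = 0.499). Of 20 other receptors and coregulators, all were tested and none was called between genotypes on either day. On day 9, 4 were higher and 1 lower at an unadjusted limma p under 0.05. Of the 24633 genes tested, 6328 were under it in either direction. For the mean of both days 1 of the 20 was called, higher, against 5.48% of all genes called higher. This was Rara, the broadly expressed retinoic acid receptor, at 0.64 ± 0.16 (adjusted p = 0.0437). Its day 9 values were 4.46 and 4.76 in knockout cells, against 3.61 and 3.77 in control cells. The Rara call was lost without any 1 of 7 arrays, that is without any but control day 7 replicate 2 (0.51 to 0.71, adjusted p from 0.0705 to 0.135). Rara lies on chromosome 11, as do Med1 and Ncor1, which were also among the 4 higher on day 9. The 1251 tested genes of that chromosome had a median log2 change of 0.34 for the mean of both days. The median of the 13786 other genes with a symbol was 0.01. On day 9 the medians were 0.38 and 0.04. The part of this in the values of Rara, Med1 and Ncor1 was not tested. None of the 9 members lies on chromosome 11: Tgm2 is on chromosome 2, Crabp2 on 3, Dhrs3 on 4, Cyp26b1 on 6, Crabp1 and Stra6 on 9, Rarb on 14, Rarg on 15 and Cyp26a1 on 19.

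Among 18 other genes that retinoic acid raises in embryonic or neural cells outside the Hox clusters, 17 were tested, and they moved in both directions. For the mean of both days 4 were higher (Pax6, Sox9, Rarres2 and Dleu7) and 2 lower (Cdx1 and Gbx2) in knockout cells, with a list median of 0.03 against -0.04 over all genes. Over all genes, 5.48% were called higher and 9.35% lower. Pax6, a transcription factor of neural progenitors, was higher by 1.51 ± 0.23 (adjusted p = 0.0158), and 1 control array of day 9 was below background for it. Its change was 0.75 after normexp (adjusted p = 0.0651, not called), and it was not called with no filter on dim probes (0.0679). Sox9, a transcription factor of progenitors and cartilage that also lies on chromosome 11, was higher by 1.00 ± 0.23 (adjusted p = 0.0348). Cdx1, a posterior patterning factor, was lower by -1.59 ± 0.41 (adjusted p = 0.0485), with 1 knockout array of day 9 below background. Without 1 array the count of higher calls fell to 1 at the least (without knockout day 7 replicate 1, or either knockout array of day 9), and to 2 without knockout day 7 replicate 2, either control array of day 7 or control day 9 replicate 1. The 2 lower calls became 0 without any 1 of these arrays except the last, where 1 was left. With no filter on dim probes, no gene of this list was called for the mean. After normexp 3 were called higher and none lower, and after the shift to the median 4 higher and none lower.

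Of 14 anterior Hox genes, which respond early to retinoic acid, 13 were tested. None was called higher in knockout cells, and 2 fell for the mean of both days, with a list median of -0.38 against -0.04 over all genes. Over all genes tested, 9.35% were called lower in that comparison. The Hoxb genes of the list lie on chromosome 11, whose tested genes had a median of 0.34 for the mean of both days. That of the other genes with a symbol was 0.01. The part of this in the list median was not tested. Hoxd3 stood at 0.43 and 0.33 in knockout cells on day 9, against 1.56 and 1.33 in control cells, and at 1.31 and 1.09 in knockout cells on day 7, against 2.01 and 2.19 in control cells. Its mean change was -0.98 ± 0.11 (adjusted p = 0.00779), called under all 15 other settings. Hoxd4, its neighbour in the cluster, had a mean change of -0.66 ± 0.13 (adjusted p = 0.0263), which was lost without any 1 of 6 arrays (all except control day 7 replicate 2 and control day 9 replicate 2; adjusted p from 0.0536 to 0.0827). The 2 falls thus became 1 without any 1 of these 6 arrays, and 4 without control day 9 replicate 2. After shifting each array to its median, 1 Hox gene was called higher and 1 lower.

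Markers of other cell types moved with these results. The summed level of the 8 fibroblast, meningeal and mesenchymal markers, in units of the 75th percentile, was 123 to 142 in knockout cells on day 9, against 70.4 to 79.6 in control cells. On day 7 it was 51.3 to 70.3 in knockout cells, against 25.5 to 37.7 in control cells. The groups stood in the same order as for Dhrs3, and the level was higher in knockout cells on both days, as it was for Stra6, Tgm2 and Aldh1a2. Of these markers, 5 of 8 rose in knockout cells for the mean of both days (Col1a1, Col1a2, Col3a1, Dcn and Lum), 1 on day 9 and none on day 7. The 5 general neuron markers summed to 65.5 to 66.6 in knockout cells on day 9, against 116 to 146 in control cells, and to 113 to 119 in knockout cells on day 7, against 162 to 183 in control cells. Motor neuron markers summed to 10.1 to 12.3 in knockout cells on day 9, against 13.6 to 20.1 in control cells, and to 36.6 to 41.4 in knockout cells on day 7, against 39.6 to 41.4 in control cells. The brightest markers weigh most in such sums. Of the 5 general neuron markers, 4 were called lower in knockout cells for the mean of both days. Of the 6 motor neuron markers, 3 were called lower and 1, Lhx3, higher. The shares over all genes were 9.35% lower and 5.48% higher. Motor neuron marker sums were lower on day 9 in both genotypes, as Crabp1 and Crabp2 were. Floor plate markers ran the other way with time, at 122 to 128 in knockout cells on day 9 and 41.4 to 44.7 on day 7, and at 113 to 130 in control cells on day 9 and 57.9 to 58.1 on day 7. The 4 astrocyte markers stood in the group order of Dhrs3 as well, at 12.6 to 19.3 in knockout cells on day 9, against 5.10 to 9.95 in control cells, and at 3.12 to 3.70 in knockout cells on day 7, against 2.11 to 2.77 in control cells. Gfap was not well above background on either control array of day 9, and none of the 3 tested was called between genotypes. Markers of pluripotent cells and of trophoblast were lower in knockout cells for the mean of both days, with 3 of 4 and 3 of 3 tested called. The pluripotent markers summed to 1.02 to 1.18 in knockout cells on day 9, against 2.66 to 3.38 in control cells, and to 1.74 to 2.12 in knockout cells on day 7, against 2.76 to 3.74 in control cells. The trophoblast markers summed to 0.155 to 0.197 in knockout cells on day 9, against 0.52 to 0.608 in control cells, and to 0.319 to 0.321 in knockout cells on day 7, against 0.661 to 0.822 in control cells. Tpbpa was not well above background on any array but 1, which was of control cells on day 9. The part of any of these markers in the results of the 9 members was not tested.

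The genes most like each member over the 8 arrays were found by Pearson's r among 13665 genes with a symbol that were well above background on all arrays. The 8 arrays are 4 groups of 2. A high r can mean that 2 genes order the groups alike or share differences between replicates, and no p is given. Nearest to Crabp2 were Mir124-2hg, the host transcript of a neuronal miRNA (r = 0.997), Rcc2 and Dpp3 (0.993 each). Nearest to Crabp1 were Strbp and Nefm, the middle neurofilament chain (r = 0.99 each), and Taf13 (0.989). Stra6 was most like Mybpc1, a muscle myosin binding protein (r = 0.997), Pla2g7 (0.977) and Pacsin3 (0.968). For Dhrs3 the nearest genes were Daam2 (r = 0.99), Cdc42ep5 (0.989) and Islr (0.989), and for Tgm2 they were Tnfrsf1a, a receptor for tumour necrosis factor (0.988), Cd302 (0.986) and Nxt2 (0.982). Cyp26a1 was nearest to Trp53bp1 (r = 0.993) and Rarb to Slc37a2 (0.984). Cyp26b1 was nearest to Rarg (r = 0.931), and Rarg to Pmaip1, a death-promoting gene (0.973). The group means lay close together for Cyp26b1 (1.40 to 1.59) and for Rarg (0.03 to 0.18). For both genes replicate 1 was above replicate 2 in every group but knockout day 9. Their r thus rests largely on differences between the arrays of a group.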

How the data were processed

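Gene expression was measured on 8 Agilent SurePrint G3 mouse arrays of 1 colour (Cy3), 2 for each combination of genotype and day, grouped by the sample titles. The deposited processed signal is the intensity of a spot, from which background and spatial trend had been removed but which had not been scaled across arrays, per the file headers. The submitters' processing notes name Agilent Feature Extraction 10.5.1. A second table deposited by the authors holds log2 values with near-equal distributions (column median 5.81) that correlated with the scanner values of the same array at r = 0.998 or higher over probes. Its offset is unknown, and it was used as an alternative.

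Of the 62976 spots of an array, 3671 controls and 104 to 166 outliers were dropped, 0 were saturated, and repeated spots of 1 probe were averaged. Of 55681 probes, 26300 were named (19897 symbols) through their RefSeq accession and a table of mouse genes on GRCm38.p6. The array's own positions are on mm9 and were not used. Log2 processed signal minus the array's 75th percentile entered a limma fit (version 3.58.1, R 4.3.3; 4 group means, 4 residual and 2.53 prior degrees of freedom, two-sided, Benjamini-Hochberg over all genes). Probes not well above background on the full pair of arrays of any group were dropped, and the brightest remaining probe represented its gene. All arrays lay on 1 slide and were scanned together, so no batch could be tested. The number of arrays limits the precision.

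The members and lists were chosen with earlier results of these data known. Genes open to be named were all members, every called gene of a list, or those with the largest change up to 4 per list, the 3 genes most like each member, and Isl1, Lhx3 and Chat. The retinol list leaves out 1 gene, which is not reported here. Alternatives were normexp background correction (offset 50, on the median signal, since the mean signal was not used here), quantile normalization, a shift to the median, no filter, the authors' table, the mean of kept probes, the replicate number as a block, and leaving out each array. The test was checked on simulated data. Figures were drawn with matplotlib 3.10.9.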

Additional observations from a re-analysis of the deposited data

How the results depend on the processing

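Of 810 recomputed values of single members under 15 other settings, 697 kept their direction and their side of the threshold, 60 kept their direction and lost a call, 1 gained one and 52 changed sign. None of those that changed sign had been called. The count of members called on day 9 between genotypes was 1 after normexp background correction. With no filter on dim probes it was 0 on day 9 and 1 for the mean of both days, and with time it was 1 in knockout cells and 0 in control cells; the cause was not tested. With no filter, adjusted p-values of the lost calls not given above were 0.0924 for Stra6 on day 9, and with time 0.0722 for Stra6, 0.0859 for Dhrs3 and 0.0508 for Crabp1 in knockout cells, and 0.0892 for Dhrs3, 0.0865 for Crabp1 and 0.0524 for Crabp2 in control cells. Leaving out 1 array gave 0 to 2 members called on day 9, 1 to 3 for the mean, 0 to 4 with time in knockout cells and 0 to 3 in control cells. It gave 0 on day 7 and 0 for the difference between days each time.

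The values that changed sign were small. Between genotypes on day 9, Cyp26a1 was 0.06 after normexp, 0.03 after quantile normalization, 0.21 after the shift to the median and 0.03 in the authors' deposited table. Rarg was 0.03 after normexp and 0.18 after the median shift, and Cyp26b1 was 0.11 after the median shift. The mean of both days for Cyp26b1 was 0.00 after quantile normalization and in the authors' table. On day 7 Rarb was 0.08 after the median shift and 0.08 as the mean of its probes, and Rarg with time in knockout cells was 0.15 after the median shift.

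Leaving out 1 array in turn, the changes between genotypes on day 7 ranged from -0.02 to 0.57 for Crabp2, from -0.13 to 0.40 for Cyp26b1, from -0.18 to 0.09 for Rarb and from -0.15 to 0.40 for Rarg. On day 9 they ranged from -0.13 to 0.12 for Cyp26a1, from -0.60 to 0.40 for Cyp26b1 and from -0.35 to 0.29 for Rarg. For the mean of both days they ranged from -0.23 to 0.27 for Cyp26b1, from -0.02 to 0.30 for Rarb and from -0.11 to 0.21 for Rarg. The differences between days ranged from -0.43 to 0.09 for Crabp1, from -0.05 to 0.69 for Crabp2, from -0.55 to 0.18 for Dhrs3, from -0.73 to 0.27 for Cyp26b1, from -0.48 to 0.17 for Rarg and from -0.04 to 0.43 for Tgm2. With time in knockout cells the ranges were -0.43 to 0.06 for Cyp26b1 and -0.28 to 0.27 for Rarg, and in control cells -0.24 to 0.04 for Stra6, -0.46 to 0.55 for Cyp26b1 and -0.17 to 0.47 for Rarg.

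The replicate numbers did not pair the samples alike in all groups by the check used. Deviations from group means correlated at -0.25 to 0.46 over 6 pairs of groups. Pairs with the knockout day 9 group gave -0.25, -0.02 and 0.04, and pairs among the other groups gave 0.25, 0.31 and 0.46. With the replicate block, 2 members were called on day 9, 3 for the mean and 4 with time in knockout cells, where Cyp26a1 was lost (-0.86, adjusted p = 0.0614). It changed no other member call. In the lists it gave 6 anterior Hox genes lower for the mean of both days in place of 2. The retinol list's 5 calls of day 9 became 3 after normexp and 0 with no filter, where its 6 calls for the mean became 3.

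Scaling moved the balance of calls over all genes. Shifting arrays to their median moved the median log2 change of all genes to 0.19 on day 9, against -0.02 as reported. The share of higher calls on day 9 was 65.1% after that shift and 36.9% after quantile normalization, against 27.5%; for the mean it was 71.5% and 48.1%, against 37%.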

Other observations

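The check of the labelled cell type gave values that moved apart from each other. Lhx3, a motor neuron progenitor and medial column transcription factor, was higher in knockout cells on day 9 by 0.91 ± 0.16 on the log2 scale (limma adjusted p = 0.0325) and for the mean of both days by 0.91 ± 0.11 (adjusted p = 0.00995). Chat, the enzyme that makes acetylcholine, was lower in knockout cells for the mean by 0.96 ± 0.17 (log2 change -0.96, adjusted p = 0.0196). Isl1 differed by -0.65 ± 0.33 for the mean (adjusted p = 0.223), not called. With time, Lhx3 fell by 1.59 ± 0.16 in knockout cells (adjusted p = 0.00606) and by 1.59 ± 0.16 in control cells (adjusted p = 0.00815).

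Foxa1, a floor plate factor and one of the genes that retinoic acid raises in embryonic cells, rose with time in both genotypes while Crabp1 and Crabp2 fell. It stood at 3.24 and 2.75 in knockout cells on day 9, against 0.58 and 0.84 on day 7, and at 3.01 and 3.64 in control cells on day 9, against 1.38 and 1.31 on day 7. The rise was 2.29 ± 0.26 in knockout cells (adjusted p = 0.00736, called under all 15 other settings) and 1.98 ± 0.26 in control cells (adjusted p = 0.0146, not called without control day 7 replicate 2, at 0.093, or control day 9 replicate 2, at 0.0626). Nr2f1, a nuclear receptor raised by retinoic acid, fell in control cells by 0.92 ± 0.15 (adjusted p = 0.0232) and changed by -0.60 ± 0.15 in knockout cells (adjusted p = 0.0603). The Nr2f1 call was lost without either control array of day 7 (adjusted p = 0.0792 and 0.116) or without control day 9 replicate 2 (0.129), after quantile normalization (-0.75, 0.0613), in the authors' deposited table (-0.74, 0.0617) and with no filter on dim probes (0.0995).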
